A study of Rattus norvegicus with 12 samples.

Results

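The renal cortex of obese Zucker fatty rats given the SGLT2 inhibitor canagliflozin (ZF-SGLT2i) was compared with that of Zucker fatty rats without the drug (ZF). These 8 rats, 4 in each group, were chosen by their labels from the 12 rats sequenced. The 4 Zucker lean rats (ZL) serve here as a reference for levels, and their values also enter the filter and the fit of all 12 rats. Of the 13151 genes in the deposited table, 11633 reached a value of 1 in 4 or more of the 12 rats and were tested, and 1518 did not. All 12 rats were 32 weeks old and, by the study's methods, male. By the same methods, ZF rats served as the obese model and are deficient in the leptin receptor, and all 8 rats compared are of this strain. Canagliflozin was mixed into the food at 10 mg/kg/day from week 24 of life onward, a course of 8 weeks, and ZF rats received none. The labels name no cohort for the sequenced ZF rats, and the study's text does not use 1 name for them throughout. By the methods, ZF rats of the time course underwent kidney biopsies before the end, and no biopsy is described for the treatment cohort. Whether the sequenced ZF rats had been biopsied is not stated, and an effect of biopsy was not tested. RNA came from whole cortex, in which fewer cells of a type and less RNA per cell cannot be told apart. Reads on genes numbered 9889639, 9866752, 11191377 and 8824980 in the ZF rats numbered 2 to 5, and 10293049, 10014466, 9982538 and 8914666 in ZF-SGLT2i rats 2, 3, 4 and 6. Values are given in this order of rats throughout. A level is the number of reads of a gene per 1000000 reads of the library after scaling, and because it is not divided by gene length, levels of different genes are not compared. Fold changes are ZF-SGLT2i over ZF on the log2(value + 1) scale, given with their SE after the ± sign. An adjusted p comes from limma with the Benjamini-Hochberg adjustment over all genes tested, and a gene was called, or is said to have risen or fallen, where it was under 0.05.

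SGLT2, encoded by Slc5a2, takes up filtered glucose together with sodium in the first segments of the proximal tubule. Its inhibition sends glucose, sodium and water into the urine, and the loss of calories moves whole-body fuel use toward fat and ketone bodies. The proximal tubule itself burns fatty acids in mitochondria and peroxisomes, makes and destroys the active vitamin D hormone calcitriol, and recovers phosphate, amino acids and organic ions. The other cells of the cortex include glomerular cells, distal and collecting tubules, vessels, fibroblasts and macrophages.

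The comparison of ZF-SGLT2i with ZF rats called 366 genes, or 3.15% of those tested. Of these, 162 (1.39%) were higher and 204 (1.75%) lower in ZF-SGLT2i rats. The values of the 4 rats of one group lay wholly above those of the other in 355 of the 366 called genes, and in 1300 (11.2%) of all genes tested. Most changes were moderate, as 17 of the called rises and 16 of the called falls reached a log2 fold change of 1 in size. The median log2 fold change of all genes tested was 0.0064. Ribosomal RNA left after depletion took 11.2, 12.0, 8.82 and 11.8% of the reads in ZF rats and 12.0, 14.3, 11.5 and 15.2% in ZF-SGLT2i rats. These shares overlapped between the groups and differed by 2.28 percentage points (exact permutation test, two-sided p = 0.114). With the share as a term in the fit, 214 genes passed, 112 of them higher. Leaving out ZF rat 5 raised the count to 569 (255 higher and 314 lower), and leaving out ZF-SGLT2i rat 3 lowered it to 176. The calls of single genes that were lost when 1 rat was left out are therefore given beside the genes.

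**Figure D1:**
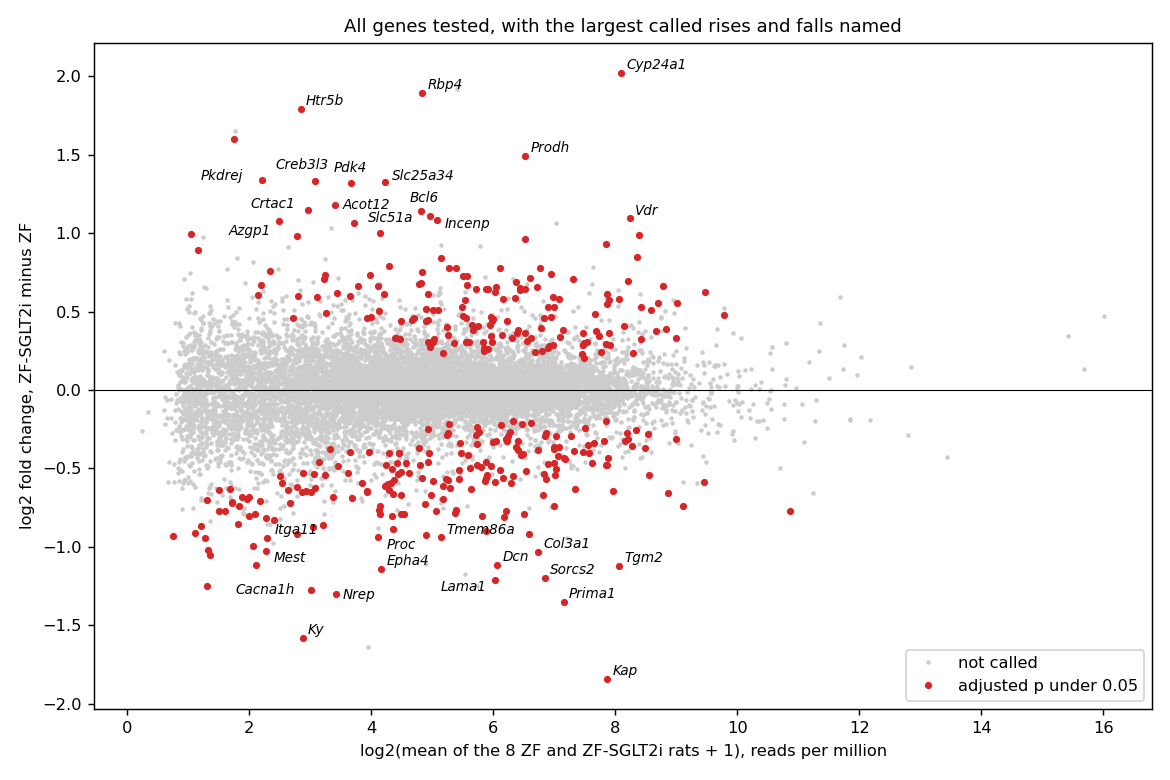
Log2 fold change between ZF-SGLT2i and ZF rats (vertical axis) against the mean level of the 8 rats on a log2 axis, 1 point for each of the 11633 genes tested. The 366 called genes are red, and the 15 largest rises and 15 largest falls without overlap and with a mean of at least 5 in the higher group carry their symbols, among which Cyp24a1 is highest and Kap lowest.

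**Figure D2:**
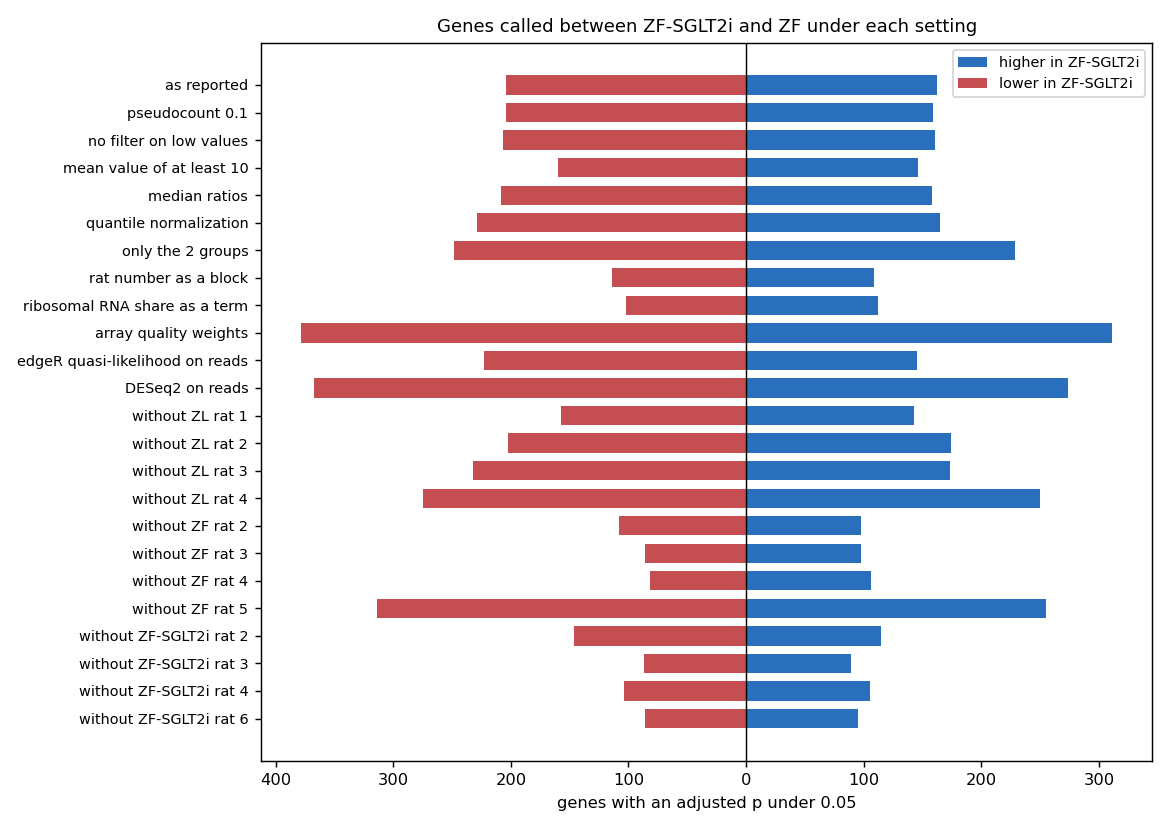
Number of genes called higher (blue, to the right) and lower (red, to the left) in ZF-SGLT2i rats for the fit as reported and for 23 alternative settings. The total is lowest without ZF-SGLT2i rat 3 (176 genes) and highest with array quality weights (689 genes).

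The drug's own target was read first. Slc5a2 stood at 370.2, 504, 519.7 and 446 in ZF rats and at 418, 359, 424 and 403 in ZF-SGLT2i rats. The groups overlapped, and the log2 fold change was −0.19 ± 0.17 (SE, adjusted p = 0.616). Slc5a1, which encodes the cotransporter SGLT1 further down the proximal tubule, stood at 44.4, 25.1, 44.6 and 27.2 and then 27.5, 33.1, 31.2 and 20.8, with a log2 fold change of −0.29 (adjusted p = 0.483), and its groups overlapped too. Among the 17 tested members of the glucose transporter list, 12 had a negative log2 fold change and the median was −0.09 (−0.16 without ZF rat 5 and −0.06 without ZF rat 4). In this list limma called 0 of 17, 4 had an unadjusted p under 0.05, edgeR called 0 and DESeq2 0. Of all 11633 genes tested, 1996 had an unadjusted p under 0.05, edgeR called 368 and DESeq2 641. The same numbers over all genes stand beside such counts of each list below. The lowest log2 fold change was that of Slc5a10, a sodium-coupled transporter of mannose and fructose. It stood at 122, 55.3, 72.6 and 49.6 in ZF rats and 23.5, 39.5, 36.2 and 20.7 in ZF-SGLT2i rats, every ZF-SGLT2i rat below every ZF rat, with a log2 fold change of −1.25 ± 0.36 (adjusted p = 0.0782). Slc2a1, the GLUT1 transporter, had a log2 fold change of 0.28 (adjusted p = 0.129).

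Genes of vitamin D turnover moved in both directions. Cyp24a1 encodes the enzyme that breaks down calcitriol and is the classical target of the vitamin D receptor. Its level was 114, 145, 115 and 59.8 in ZF rats and 483, 392, 575 and 291 in ZF-SGLT2i rats, with a mean of 43.7 ± 16.0 (SD, n = 4) in ZL rats. The lowest ZF-SGLT2i rat stood above the highest ZF rat. Vdr, the receptor itself, stood at 174, 201, 165 and 222 in ZF rats and 339.9, 393, 549 and 367 in ZF-SGLT2i rats, again without overlap and highest in the same rat 4 as Cyp24a1. The log2 fold changes were 2.02 ± 0.29 (SE) for Cyp24a1 (limma, adjusted p = 0.00225) and 1.09 ± 0.16 for Vdr (adjusted p = 0.00264). Cyp27b1, whose enzyme makes calcitriol, had few reads (1 to 23 per rat). Its level was 1.53, 1.40, 1.88 and 2.51 in ZF rats and 0.381, 0.707, 0.101 and 0.892 in ZF-SGLT2i rats, lower in each ZF-SGLT2i rat than in any ZF rat, with a log2 fold change of −0.91 ± 0.21 (adjusted p = 0.0307). Pth1r, the receptor for parathyroid hormone on the proximal tubule, was also lower, at 302, 304, 329 and 330.1 and then 252, 241, 275 and 244 (log2 fold change −0.32 ± 0.06, adjusted p = 0.00914). In the whole list of 19 genes of vitamin D, Klotho and phosphate, 2 rose and 2 fell (10.5% each, beside 1.39% and 1.75% of all genes), with a median log2 fold change of −0.14 (−0.08 without ZF rat 2). The remaining 15, which include Kl, Fgfr1 and the sodium-phosphate cotransporters Slc34a1 and Slc34a3, did not pass. The log2 fold change was −0.19 for Slc34a1 (adjusted p = 0.472), −0.24 for Slc34a3 (adjusted p = 0.482) and 0.02 for Kl (adjusted p = 0.939). The mean level in ZF-SGLT2i rats was 4.02 times that in ZF rats for Cyp24a1 and 2.16 times for Vdr. Both passed under all 23 alternatives, whereas the call of Cyp27b1 was lost with a pseudocount of 0.1, with the ribosomal RNA share as a term and with some rats left out (highest adjusted p = 0.086 without ZF-SGLT2i rat 4).

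**Figure D3:**
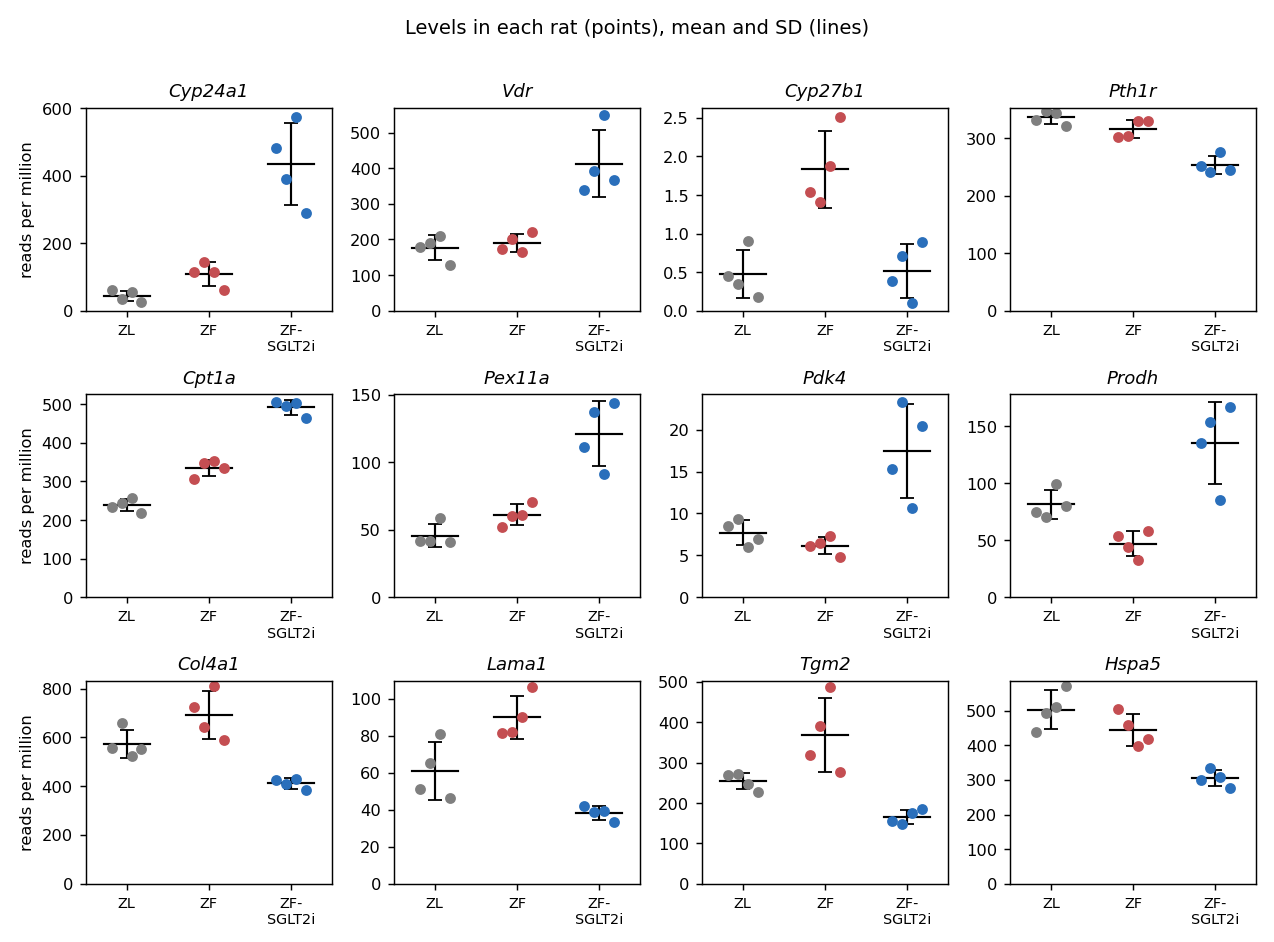
Level of 12 genes in each rat, in reads per 1000000 reads on axes that start at 0, with ZL rats in grey, ZF rats in red and ZF-SGLT2i rats in blue. Horizontal lines are means and bars are SDs (n = 4), and in each of the 12 genes the ZF-SGLT2i rats lie wholly above or wholly below the ZF rats.

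Several genes that bring fatty acids into mitochondria for oxidation rose in ZF-SGLT2i rats. Cpt1a, which encodes the outer-membrane enzyme that controls the entry of long-chain fatty acids, stood at 307, 348, 353 and 336 in ZF rats and 507, 496, 503 and 463 in ZF-SGLT2i rats. The ZF-SGLT2i rats were close together and all above the ZF rats, with a log2 fold change of 0.55 ± 0.06 (limma, adjusted p = 0.000586). Its inner-membrane partner Cpt2 rose from 44.9, 46.4, 57.7 and 53.3 to 77.3, 81.9, 78.4 and 74.6, without overlap (log2 fold change 0.62 ± 0.09, adjusted p = 0.00244). Ppara, the nuclear receptor that switches on fatty acid oxidation genes, had a level of 54.6, 68.0, 63.6 and 84.7 in ZF rats and 90.3, 104, 108 and 118 in ZF-SGLT2i rats (log2 fold change 0.64 ± 0.13, adjusted p = 0.0162). Acsl1, which activates long-chain fatty acids to their CoA esters, was the other called member (log2 fold change 0.41, adjusted p = 0.0309). Of the 25 tested genes of mitochondrial fatty acid oxidation, 21 had a positive log2 fold change, 4 passed (16.0%, beside 1.39% of all genes), and the median was 0.15 (0.10 without ZF rat 2). The enzymes of the oxidation spiral in the list, such as Acadm (−0.03), Hadha (0.15) and Acaa2 (0.11, all log2 fold changes), did not pass. The count of called members was 2 without ZF-SGLT2i rat 6 and 5 without ZF rat 4. Calls of single genes were lost with 1 rat left out for Acsl1 (0.096 without ZF rat 2) and Ppara (0.057 without ZF-SGLT2i rat 6), where the value is the highest adjusted p, and Acsl1 and Ppara did not pass with the ribosomal RNA share as a term. With that term 3 members of the list were called higher, not all of them called without it.

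In peroxisomes, Pex11a showed the largest change. This gene, whose protein divides and multiplies peroxisomes, stood at 52.0, 60.0, 61.2 and 70.7 in ZF rats and 111, 137, 91.5 and 144 in ZF-SGLT2i rats. The groups did not overlap, and ZF-SGLT2i rat 4 was the lowest treated rat (log2 fold change 0.96 ± 0.15, limma, adjusted p = 0.00315). Ehhadh, the bifunctional enzyme of peroxisomal oxidation, rose from 175, 186, 236 and 169 to 283, 304, 288 and 258 (log2 fold change 0.57 ± 0.10, adjusted p = 0.00593). Phyh, which starts the breakdown of phytanic acid, had a log2 fold change of 0.29 (adjusted p = 0.0156). These were the 3 called of 21 peroxisomal members (14.3%, beside 1.39% of all genes called higher), whose median was 0.08 (0.03 without ZF rat 5 and 0.13 without ZF rat 4). Cyp4a1, whose enzyme hydroxylates the far end of fatty acids, stood at 63.0, 69.956, 81.4 and 78.5 and then 126, 125, 101 and 129.6 (log2 fold change 0.71 ± 0.16, adjusted p = 0.0295). Highest adjusted p-values with 1 rat left out were above 0.05 for Phyh (0.055 without ZF rat 3) and Cyp4a1 (0.093 without ZF rat 2), and the latter was also lost with the ribosomal RNA share as a term. With that term 5 members of the peroxisomal list were called higher.

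Genes of fat release, uptake and fuel choice changed beside them. Pnpla2, the lipase that starts the breakdown of stored triglyceride, stood at 112, 121, 119 and 122 in ZF rats, within a narrow range, and at 199.9, 204, 163 and 214 in ZF-SGLT2i rats (log2 fold change 0.71 ± 0.08, limma, adjusted p = 0.000534). The fatty acid transport proteins Slc27a1 and Slc27a2 were higher too, with log2 fold changes of 0.46 (adjusted p = 0.00112) and 0.33 (adjusted p = 0.0352). They were the 3 called of 20 genes of lipid uptake and droplets (15%, beside 1.39% of all genes called higher), with a median of 0.05 (0.01 without ZF-SGLT2i rat 2). Pdk4, the kinase that shuts pyruvate out of the citric acid cycle, rose from 6.14, 6.41, 7.26 and 4.81 to 15.3, 23.3, 10.7 and 20.4. Here too the groups did not overlap and rat 4 was the lowest ZF-SGLT2i rat (log2 fold change 1.32 ± 0.20, adjusted p = 0.00315). In fatty acid synthesis, Acly, which makes cytosolic acetyl-CoA, fell from 168, 179.5, 201 and 176 to 139, 139.9, 141 and 132 (log2 fold change −0.39 ± 0.06, adjusted p = 0.00264). The elongase Elovl6 moved the other way, from 24.0, 31.8, 23.4 and 31.3 to 46.4, 49.4, 47.1 and 47.3 (log2 fold change 0.78 ± 0.10, adjusted p = 0.00112). They were the 2 called of 14 members, 1 in each direction (7.14%, beside 1.39% of all genes called higher and 1.75% lower), and in the sterol synthesis list limma called 0 of 23, 5 had an unadjusted p under 0.05, edgeR called 0 and DESeq2 0. The call was lost with 1 rat left out for Slc27a2 (0.11 without ZF rat 3), and edgeR on the reads did not call Slc27a2.

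Acot12, Slc25a34 and Creb3l3 were also among the largest rises. Acot12, an acetyl-CoA thioesterase, stood at 4.51, 6.51, 4.87 and 6.23 in ZF rats and 13.0, 16.2, 10.7 and 15.4 in ZF-SGLT2i rats, with a ZL mean of 14.2 ± 4.98. Its groups did not overlap (log2 fold change 1.18 ± 0.21, limma, adjusted p = 0.00859). Slc25a34, a mitochondrial carrier, rose from 9.78, 7.42, 10.3 and 11.0 to 25.8, 28.5, 20.1 and 28.2 (log2 fold change 1.33 ± 0.14, adjusted p = 0.00034). Creb3l3, a transcription factor of lipid metabolism tethered to the endoplasmic reticulum, rose from 2.21, 3.31, 5.38 and 4.70 to 10.3, 13.3, 8.35 and 12.3 (log2 fold change 1.33 ± 0.22, adjusted p = 0.00517). These 3 genes passed under every alternative that tested them.

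Single genes of carbohydrate metabolism and of alanine and proline handling were called. Pklr, the pyruvate kinase of liver and kidney, fell from 93.3, 87.4, 96.4 and 85.4 in ZF rats to 53.2, 55.9, 49.7 and 46.8 in ZF-SGLT2i rats, without overlap (log2 fold change −0.81 ± 0.09, limma, adjusted p = 0.000403). It was the single call among 21 genes of glycolysis (4.76%, beside 1.75% of all genes called lower), whose median was −0.03. Fbp1, the fructose bisphosphatase of gluconeogenesis, stood at 507, 515, 768 and 490.1 and then 404, 351, 383 and 295, so that ZF rat 4 was far above the rest of its group (log2 fold change −0.65 ± 0.13, adjusted p = 0.0187). Gpt2, which links alanine with pyruvate in mitochondria, was higher, at 8.73, 8.82, 8.20 and 12.8 and then 15.5, 17.6, 11.9 and 18.3, with ZF rat 5 overlapping ZF-SGLT2i rat 4 (log2 fold change 0.66 ± 0.14, adjusted p = 0.0241). Prodh, the first enzyme of proline breakdown, stood at 53.7, 43.9, 32.6 and 58.2 in ZF rats and 135, 154, 85.1 and 167 in ZF-SGLT2i rats, with a ZL mean of 81.4 ± 12.9. All ZF-SGLT2i rats lay above all ZF rats, and the log2 fold change was 1.49 ± 0.20 (adjusted p = 0.00131). In contrast, the 66 tested genes of oxidative phosphorylation stayed within a narrow band around a median of 0.01, where limma called 0 of 66, 0 had an unadjusted p under 0.05, edgeR called 0 and DESeq2 0. Of 27 genes of the citric acid cycle and pyruvate entry, Pdk4 was the only call (3.7%, beside 1.39% of all genes called higher), and the median was −0.04. Leaving out 1 rat took the adjusted p above 0.05 for Fbp1 (0.061 without ZF-SGLT2i rat 6) and Gpt2 (0.085 without ZF-SGLT2i rat 3), and Fbp1 and Gpt2 did not pass with the ribosomal RNA share as a term.

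Genes that respond to glucocorticoids and mineralocorticoids, listed together with receptors and converting enzymes of these hormones, were mostly higher. Of 19 tested, 15 had a positive log2 fold change, the median was 0.47, and 4 passed (21.1%, beside 1.39% of all genes), namely Pdk4, Klf15, Mt1a and Mt2A. Klf15, a transcription factor of amino acid and fat use, stood at 66.3, 66.8, 65.0 and 84.3 in ZF rats and 124, 100.04, 99.0 and 120.0 in ZF-SGLT2i rats, above the ZF rats throughout (log2 fold change 0.64 ± 0.12, limma, adjusted p = 0.0115). The metallothioneins bind zinc and copper. Mt2A rose from 187, 187, 289 and 228 to 417, 395, 637 and 342 (log2 fold change 0.99 ± 0.18, adjusted p = 0.00859), and Mt1a from 121, 126, 211 and 175 to 297, 244, 424 and 244 (log2 fold change 0.93 ± 0.20, adjusted p = 0.022). In both, rat 4 was the highest of each group, and neither pair of groups overlapped. Zbtb16, a transcription factor that glucocorticoids induce, had a larger log2 fold change that did not pass (1.92, adjusted p = 0.163). The number called was 3 without ZF rat 2 and 7 without ZF rat 5. The call of Mt1a was lost with some rats left out (highest adjusted p = 0.074 without ZF rat 3).

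The promoters of the called metallothionein genes are shown because both carry the element through which zinc acts on them. Each is 300 bases from RefSeq (GRCr8), read along the gene, and capitals mark each match to TGCACNC or TGCGCNC on either strand, the core of the metal response element, which no other motif searched overlaps. Mt1a is listed there as Mt1 (chr19:10832926-10833225, minus strand) and Mt2A lies at chr19:10838659-10838958 on the minus strand.
Mt1a: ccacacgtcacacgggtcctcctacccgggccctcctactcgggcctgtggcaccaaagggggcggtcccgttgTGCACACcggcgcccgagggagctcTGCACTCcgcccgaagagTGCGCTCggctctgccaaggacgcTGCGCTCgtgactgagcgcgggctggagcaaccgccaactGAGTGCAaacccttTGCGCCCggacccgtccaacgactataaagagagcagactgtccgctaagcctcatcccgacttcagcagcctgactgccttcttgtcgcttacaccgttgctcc
Mt2A: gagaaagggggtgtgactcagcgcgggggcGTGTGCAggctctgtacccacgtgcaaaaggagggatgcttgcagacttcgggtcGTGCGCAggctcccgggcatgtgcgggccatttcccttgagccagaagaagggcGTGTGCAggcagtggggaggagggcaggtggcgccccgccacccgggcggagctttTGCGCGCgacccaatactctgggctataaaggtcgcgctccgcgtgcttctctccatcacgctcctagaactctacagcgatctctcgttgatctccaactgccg
The core occurred 6 times in the promoter of Mt1a and 4 times in that of Mt2A, and at least once in 6864 of all 27457 promoters, which reach from 250 bases before to 50 after the gene start. A match is a description of the sequence and was not tested for binding.

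Other hormone-related regulators changed singly. Igfbp1, a secreted binding protein of insulin-like growth factors that insulin represses, stood at 72.2, 76.9, 64.8 and 54.5 in ZF rats and 105, 112, 106 and 97.1 in ZF-SGLT2i rats, without overlap (log2 fold change 0.65 ± 0.11, limma, adjusted p = 0.00674). Foxo1, a transcription factor held in check by insulin, stood at 54.8, 57.5, 54.4 and 53.3 and then 69.0, 71.4, 57.0 and 77.5. These groups overlapped in ZF-SGLT2i rat 4 (log2 fold change 0.31 ± 0.08, adjusted p = 0.0445). They were the 2 called of 37 genes of insulin, IGF and mTOR signaling (5.41%, beside 1.39% of all genes called higher), with a median of −0.01. Among 30 tubule transcription factors, Ppara, Foxo1, Klf15 and Nr0b2 rose (13.3%, beside 1.39% of all genes, and only 1 gene called without ZF rat 4), and 21 had a positive log2 fold change. Nr0b2, a repressor that bile acid receptors induce, had a log2 fold change of 0.61 (adjusted p = 0.0315). Bcl6, a transcriptional repressor, rose from 16.1, 13.6, 25.4 and 12.6 to 42.7, 33.0, 34.6 and 38.8 (log2 fold change 1.14 ± 0.19, adjusted p = 0.00553). Calls were lost with 1 rat left out for Foxo1 (0.13 without ZF-SGLT2i rat 3) and Nr0b2 (0.1 without ZF-SGLT2i rat 6), and with the ribosomal RNA share as a term Klf15 was the only one of the 4 transcription factors still called. Foxo1 was lost with quantile normalization and with only the 2 groups in the fit as well.

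Part of the detoxification enzymes rose. Of 58 tested genes of conjugation and detoxification, 10 passed (17.2%, beside 1.39% of all genes), all higher in ZF-SGLT2i rats, and 41 had a positive log2 fold change, with a median of 0.19. Gstz1, a glutathione transferase that also breaks down tyrosine, stood at 66.2, 58.7, 67.0 and 57.6 in ZF rats and 105, 103, 100.4 and 95.1 in ZF-SGLT2i rats. The groups were well apart (log2 fold change 0.69 ± 0.08, limma, adjusted p = 0.000534). Sult1a1, a sulfotransferase of phenols, rose from 21.7, 24.6, 26.5 and 24.0 to 44.6, 52.3, 38.3 and 42.1 (log2 fold change 0.84 ± 0.10, adjusted p = 0.000534). Gstt3, another glutathione transferase, rose from 272, 307, 308 and 241 to 427, 401, 428 and 367 (log2 fold change 0.53 ± 0.10, adjusted p = 0.00913). The further called members were Gstm1, Gstm2, Gstm7, Gsta3, Fmo5, Ces2c and Ugt2b10, with log2 fold changes from 0.46 (Gsta3) to 0.67 (Ugt2b10). Several of them belong to families of close copies that can share reads, so their single values are uncertain. The number called was 4 without ZF-SGLT2i rat 3 and 11 without ZL rat 4. With 1 rat left out, the highest adjusted p was above 0.05 for Gstm1 (0.094 without ZF-SGLT2i rat 3), Gstm2 (0.056 without ZF-SGLT2i rat 6), Gstm7 (0.055 without ZF-SGLT2i rat 3), Gsta3 (0.086 without ZF-SGLT2i rat 4), Fmo5 (0.094 without ZF-SGLT2i rat 3), Ces2c (0.057 without ZF rat 3) and Ugt2b10 (0.13 without ZF rat 3). With the ribosomal RNA share as a term, Gstm1, Gstm2, Gstm7 and Gsta3 did not pass. The list had 9 genes called higher with that term, not all of them called without it. Ugt2b10 was also lost with edgeR on the reads, with a pseudocount of 0.1 and with only the 2 groups in the fit. In the antioxidant list, Gstm1 was the single call of 31 (3.23%, beside 1.39% of all genes called higher), and the median was 0.0007.

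Cytochrome P450 genes moved both ways. Cyp2e1, which oxidises ethanol, acetone and other ketones, stood at 235, 221, 274 and 202 in ZF rats and 516, 448, 407 and 323 in ZF-SGLT2i rats, with a ZL mean of 394 ± 50.7. The groups did not overlap (log2 fold change 0.85 ± 0.14, limma, adjusted p = 0.00447). Cyp4a1 and Cyp4f6, both hydroxylases of fatty acids, were the other rises of 35 genes tested, the latter with a log2 fold change of 0.28 (adjusted p = 0.0282). Cyp1b1 and Cyp27b1 fell, so that 8.57% of the list was called higher, beside 1.39% of all genes, and 5.71% lower, beside 1.75%. Cyp1b1, a target of the aryl hydrocarbon receptor that also acts in fibroblasts, stood near the detection limit at 2.78, 1.90, 2.48 and 1.64 and then 0.857, 0.303, 0.704 and 0.780 (log2 fold change −0.94 ± 0.17, adjusted p = 0.00937). The number called higher was 1 without ZF rat 3 and 5 without ZL rat 4, and the call of Cyp4f6 was lost with some rats left out (highest adjusted p = 0.096 without ZF-SGLT2i rat 3). Both falls and the rises of Cyp4a1 and Cyp4f6 did not pass with the ribosomal RNA share as a term. The list still had 3 genes called higher with that term, not all of them called without it.

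A few transporters and receptors of the tubule changed. Slc22a6, the basolateral organic anion transporter OAT1, fell from 759, 838, 910.4 and 845 in ZF rats to 609, 567, 558 and 499 in ZF-SGLT2i rats, without overlap (log2 fold change −0.59 ± 0.10, limma, adjusted p = 0.00843). Slc22a25, of the same family, had a log2 fold change of −0.38 (adjusted p = 0.0371), and these were the 2 called of 26 organic ion transporters (7.69%, beside 1.75% of all genes called lower). Slc36a1, a proton-coupled amino acid transporter, fell (−0.40, adjusted p = 0.0247) as the only call of 27 amino acid transporters (3.7%, beside 1.75% of all genes called lower). Slc51a, a subunit of the basolateral bile acid and steroid exporter, rose from 17.9, 18.7, 21.5 and 16.6 to 40.4, 34.8, 48.2 and 42.8 (log2 fold change 1.11 ± 0.17, adjusted p = 0.00298). Cldn10, a claudin that sets the ion selectivity of tight junctions, stood at 59.5, 47.0, 61.1 and 40.9 in ZF rats and 28.9, 30.0, 35.6 and 25.7 in ZF-SGLT2i rats (log2 fold change −0.76 ± 0.16, adjusted p = 0.0223) and was the only call of 22 tight junction genes (4.55%, beside 1.75%). Without ZF rat 5, 2 tight junction genes were called higher and 2 lower, beside 255 and 314 of all 11612 genes tested in that fit. Agtr1a, the main angiotensin receptor, stood at 42.2, 48.2, 60.3 and 36.4 and then 29.9, 29.6, 32.8 and 26.2 (log2 fold change −0.62 ± 0.12, adjusted p = 0.0166), the only call of 13 renin-angiotensin genes (7.69%, beside 1.75%). Ptger1, a prostaglandin E receptor, rose as the only call of 26 vasoactive genes (3.85%, beside 1.39% of all genes called higher), at 0.44 on the log2 scale (adjusted p = 0.0167). Calls that were lost with 1 rat left out (highest adjusted p) were those of Slc22a25 (0.12 without ZF-SGLT2i rat 6), Slc36a1 (0.075 without ZF rat 4), Cldn10 (0.074 without ZF-SGLT2i rat 6), Agtr1a (0.057 without ZF-SGLT2i rat 6) and Ptger1 (0.058 without ZF-SGLT2i rat 6), and all 5 were lost with the ribosomal RNA share as a term.

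The collecting duct lists leaned upward. Aqp2, the water channel that vasopressin moves to the membrane of principal cells, stood at 549, 629.6, 422 and 632 in ZF rats and 781, 842, 823 and 962 in ZF-SGLT2i rats, without overlap (log2 fold change 0.62 ± 0.16, limma, adjusted p = 0.0495). It was the only call of 15 principal cell genes (6.67%, beside 1.39% of all genes called higher), of which 14 had a positive log2 fold change, with a median of 0.30. The call was at the threshold and was lost in 15 of 23 alternatives, among them edgeR on the reads, quantile normalization, the ribosomal RNA share as a term, and ZF-SGLT2i rat 6 left out (adjusted p = 0.14). The principal cell list had 3 genes called higher without ZL rat 4, beside 250 of all 11610 genes tested in that fit. Its median was 0.19 with the ribosomal RNA share as a term. All 16 tested genes of acid-base transport in intercalated cells had a positive log2 fold change, and the median was 0.40. In that list limma called 0 of 16, 11 had an unadjusted p under 0.05, edgeR called 0 and DESeq2 6. Slc4a1, the chloride-bicarbonate exchanger of the acid-secreting cell, stood at 392, 454, 324 and 496 in ZF rats and 572, 588, 587 and 571 in ZF-SGLT2i rats without overlap (log2 fold change 0.49 ± 0.13, adjusted p = 0.0596). Atp6v1g3, a proton pump subunit, had a log2 fold change of 0.58 (adjusted p = 0.0641), and Aqp6 one of 0.40 (adjusted p = 0.0637). The summed level of the 7 intercalated cell markers was 1495, 1759, 1309 and 2033 in ZF rats and 2265, 2269.7, 2218 and 2379 in ZF-SGLT2i rats, where the treated rats were all above the ZF rats. Without ZF rat 5, 8 of the 16 acid-base genes passed, all higher, beside 255 of all 11612 genes tested in that fit. The summed level of inner medulla and papilla markers, from a deeper zone that also holds collecting duct, was higher with these lists, at 139.9, 153, 127 and 151 in ZF rats and 161, 163, 179 and 209 in ZF-SGLT2i rats, without overlap. Its 5 tested genes were mixed, since 2 had a negative log2 fold change, both with every ZF-SGLT2i rat below the ZF rats, and in 1 every ZF-SGLT2i rat was above them. Of all genes tested, 11.2% did not overlap between the groups. In that marker list limma called 0 of 5, 2 had an unadjusted p under 0.05, edgeR called 0 and DESeq2 1, the median log2 fold change was 0.02, its most abundant gene by reads, Aqp4, had a log2 fold change of 0.71 (adjusted p = 0.117), and its urea transporter Slc14a1 was under 1 in all 8 rats. The part of the depth of the dissection in the collecting duct values was not tested.

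Markers of the other segments were summed in the same way. The thick limb markers summed to 5864, 4059, 4365 and 4014 in ZF rats and 3047, 3731, 3598 and 3298 in ZF-SGLT2i rats, and their most abundant gene by reads, Umod, the urinary protein uromodulin, stood at 4034, 2559, 2850.4 and 2418 and then 1641, 2072, 2007 and 1704 (log2 fold change −0.65 ± 0.19, limma, adjusted p = 0.0917). Both were lower in every ZF-SGLT2i rat than in any ZF rat, and Cldn10 was the only called marker of 7 (14.3%, beside 1.75% of all genes called lower), whose median log2 fold change was −0.03. In the list of salt transport in the thick limb and distal tubule limma called 0 of 18, 6 had an unadjusted p under 0.05, edgeR called 0 and DESeq2 2. Slc12a3, the thiazide-sensitive cotransporter and most abundant marker by reads of the distal convoluted tubule, had a log2 fold change of 0.43 ± 0.17 (adjusted p = 0.198). Proximal tubule markers summed to 24817, 25841, 30332 and 23438 in ZF rats and 25642, 23401, 24299.8 and 20226 in ZF-SGLT2i rats, and Lrp2, the endocytic receptor megalin, had a log2 fold change of −0.28 (adjusted p = 0.425). These proximal groups overlapped, and of 16 markers Slc27a2 rose and Slc22a6 fell (6.25% each, beside 1.39% and 1.75% of all genes). For podocytes, limma called 0 of 15, 4 had an unadjusted p under 0.05, edgeR called 0 and DESeq2 1, and the median was −0.01. Podxl, the most abundant podocyte marker by reads, stood at 1021, 1017, 808 and 1107 in ZF rats and 881, 1130.2, 1119 and 1161 in ZF-SGLT2i rats, which overlapped. The part of cell composition in the changes of tubule genes was not tested.

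**Figure D4:**
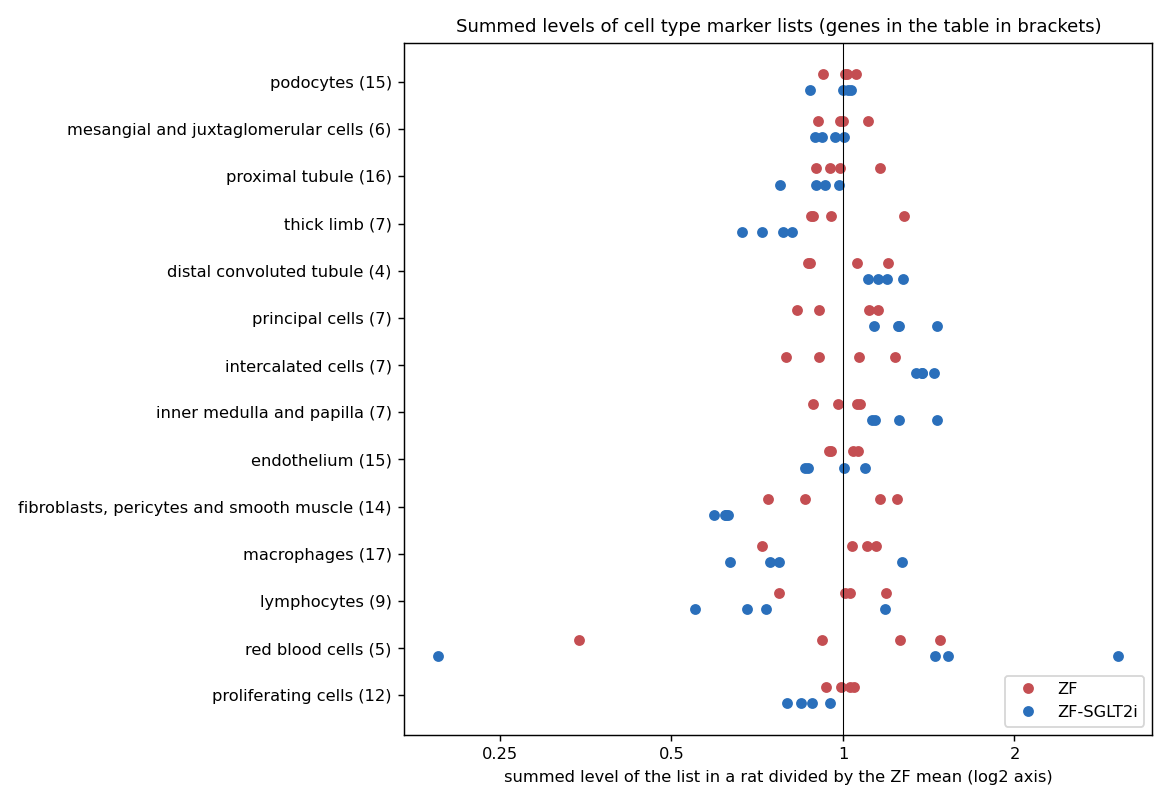
Summed level of each marker list in each rat divided by the mean of the ZF rats, on a log2 axis, with ZF rats in red and ZF-SGLT2i rats in blue. The fibroblast and thick limb sums of all 4 ZF-SGLT2i rats lie below those of the ZF rats and the intercalated cell sums above, while the podocyte, proximal tubule and macrophage sums overlap.

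Chaperones of the endoplasmic reticulum, which fold secreted and membrane proteins, were lower in part. Hspa5, the chaperone BiP, stood at 504, 458, 398 and 419 in ZF rats and 300.1, 335, 307 and 278 in ZF-SGLT2i rats, with a ZL mean of 503 ± 55.4. No ZF-SGLT2i rat reached the lowest ZF rat (log2 fold change −0.54 ± 0.09, limma, adjusted p = 0.00643). Calr, the calcium-binding chaperone calreticulin, fell from 575, 566, 592 and 529 to 446, 490.0, 478 and 408 (log2 fold change −0.31 ± 0.07, adjusted p = 0.0264). These were the 2 called of 29 genes (6.9%, beside 1.75% of all genes called lower), of which 21 had a negative log2 fold change, with a median of −0.07. The median of these genes was −0.12 without ZF-SGLT2i rat 3 and −0.05 without ZF rat 5. Hsp90b1, the chaperone GRP94, did not pass (−0.27, adjusted p = 0.0861). The stress-induced factors Ddit3 (−0.04, adjusted p = 0.92) and Atf4 (−0.12, adjusted p = 0.372) did not pass. The call of Calr was lost with 1 rat left out (adjusted p = 0.078 without ZF-SGLT2i rat 6) and with the ribosomal RNA share as a term. In the heat shock list of 23, with 1 call in each direction (4.35%, beside 1.39% of all genes called higher and 1.75% lower), the cytosolic chaperone Hsp90aa1 fell (−0.31, adjusted p = 0.0264) and the cold-inducible RNA-binding protein Rbm3 rose from 56.3, 53.1, 52.4 and 48.3 to 80.3, 75.9, 65.0 and 66.5 (0.44 ± 0.07, adjusted p = 0.00553). The call of Hsp90aa1 was lost with 1 rat left out (adjusted p = 0.086 without ZF-SGLT2i rat 3) and with the same term.

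The promoters of the called chaperone genes are shown because both hold the endoplasmic reticulum stress element, through which a loss of folding capacity is known to raise these genes. They are 300 bases each from RefSeq (GRCr8), at chr3:38452766-38453065 on the plus strand for Hspa5 and chr19:40213117-40213416 on the plus strand for Calr. Capitals mark the parts CCAAT and CCACG with 9 bases between, or the same on the other strand, and no other motif searched overlaps them.
Hspa5: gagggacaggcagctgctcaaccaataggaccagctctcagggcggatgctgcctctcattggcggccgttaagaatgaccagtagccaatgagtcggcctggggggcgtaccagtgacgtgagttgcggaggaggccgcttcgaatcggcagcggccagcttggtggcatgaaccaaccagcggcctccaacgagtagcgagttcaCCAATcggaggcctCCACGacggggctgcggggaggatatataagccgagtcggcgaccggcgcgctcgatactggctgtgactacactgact
Calr: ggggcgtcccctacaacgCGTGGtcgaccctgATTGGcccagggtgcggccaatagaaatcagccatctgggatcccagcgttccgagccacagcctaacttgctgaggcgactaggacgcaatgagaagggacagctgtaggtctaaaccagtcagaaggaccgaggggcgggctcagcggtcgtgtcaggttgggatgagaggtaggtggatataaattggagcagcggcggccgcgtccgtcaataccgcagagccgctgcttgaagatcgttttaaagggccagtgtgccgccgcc
This full element was in 21 of 27457 promoters (0.0765%). It was in 8 of the 24 members of the list with an entry, namely Hspa5, Calr, Hsp90b1, Xbp1, Canx, Dnajc3, Creld2 and Derl3. Of these 8, the 2 shown were called and the other 6 did not pass, with log2 fold changes from −0.27 (Hsp90b1) to 0.05 (Creld2). A direct repeat of AGGTCA with 1 base between was in 16 of all promoters. It was in 0 of 21 of the mitochondrial and 0 of 18 of the peroxisomal fatty acid oxidation list. For so rare an element 0 was the likely count in lists of this size, so nothing is drawn from it. Vitamin D half-sites with 3 bases between were in 68 of all promoters and in 0 of the 14 promoters found for the vitamin D list. Cyp24a1 had no entry, so its promoter was not searched. These half-sites are rare over all promoters as well, so nothing is drawn from their count of 0. An E-box (1826 of all promoters) was in 2 and a D-box (242 of all) in 1 of the 9 promoters of the repressor clock list.

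Extracellular matrix genes were mostly lower in ZF-SGLT2i rats. Of 38 tested genes of collagens, laminins and matrix, 11 passed (28.9%, beside 1.75% of all genes), all of them lower, 35 had a negative log2 fold change, and the median was −0.48. Col4a1, the main chain of type IV collagen in basement membranes, stood at 725, 642, 812 and 591 in ZF rats and 426, 409, 431 and 383 in ZF-SGLT2i rats, with a ZL mean of 573 ± 59.1. The treated rats were close together and all below the ZF rats (log2 fold change −0.74 ± 0.10, limma, adjusted p = 0.00113). Lama1, a laminin chain of tubular basement membrane, fell from 81.3, 82.2, 90.3 and 106 to 41.9, 38.7, 39.2 and 33.2 (log2 fold change −1.21 ± 0.15, adjusted p = 0.000689). Col3a1, a fibrillar collagen of fibroblasts, fell from 178, 119.9, 171 and 106 to 81.1, 72.1, 63.4 and 57.7, with ZF rats 2 and 4 highest (log2 fold change −1.03 ± 0.17, adjusted p = 0.00553). The other called members were the collagens Col1a2, Col4a4 and Col5a1, the laminin Lama4, the elastic fibre genes Fbn1, Fbln5 and Loxl1, and the protease inhibitor Timp3, with log2 fold changes from −0.80 (Fbn1) to −0.25 (Timp3). Tgm2, which cross-links matrix proteins, was outside the list and stood at 319.8, 392, 486 and 276 in ZF rats and 155, 148, 175 and 185 in ZF-SGLT2i rats (log2 fold change −1.12 ± 0.14, adjusted p = 0.000845). The number of called matrix genes was 3 without ZF rat 4 and 19 without ZF rat 5, and it was 5 with the ribosomal RNA share as a term. With 1 rat left out, the highest adjusted p was above 0.05 for Col1a2 (0.065 without ZF rat 4), Col4a4 (0.058 without ZF-SGLT2i rat 6), Col5a1 (0.095 without ZF rat 2), Lama4 (0.078 without ZF-SGLT2i rat 3), Fbn1 (0.11 without ZF rat 2), Fbln5 (0.059 without ZF-SGLT2i rat 4), Loxl1 (0.086 without ZF-SGLT2i rat 6) and Timp3 (0.12 without ZF-SGLT2i rat 6), and Col1a2, Col4a4, Col5a1, Fbn1, Loxl1 and Timp3 did not pass with the ribosomal RNA share as a term. Lama1, Col4a1, Col3a1 and Tgm2 passed under all 23 alternatives.

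Markers of fibroblasts, pericytes and smooth muscle were lower beside the matrix genes. All 12 tested had a negative log2 fold change, 4 passed, all lower (33.3%, beside 1.75% of all genes), and the median was −0.56. Their summed level was 1014, 699, 947 and 602 in ZF rats and 508, 505, 484 and 512 in ZF-SGLT2i rats. The ZF rats were spread, with rats 2 and 4 high, and all ZF-SGLT2i rats lay below them within a narrow range. Dcn, the proteoglycan decorin of fibroblasts, fell from 113, 76.8, 119 and 58.3 to 45.4, 35.2, 40.6 and 39.9 (log2 fold change −1.11 ± 0.20, limma, adjusted p = 0.00827). Pdgfrb, the growth factor receptor of pericytes and mesangial cells and the most abundant marker by reads, fell from 173, 153, 158 and 123 to 103, 108, 95.7 and 119 (log2 fold change −0.50 ± 0.12, adjusted p = 0.0309). Col3a1, a member of both lists, and Tagln, a smooth muscle protein (−0.77, adjusted p = 0.0443), were the other calls. The part of the number of such cells in the fall of matrix genes was not tested. The call was lost with 1 rat left out for Pdgfrb (0.098 without ZF rat 2) and Tagln (0.12 without ZF rat 4), and the number of called markers was 2 without ZF rat 2 and 6 without ZF rat 5. With the ribosomal RNA share as a term it was 3, without Tagln. Of the 28 genes of the TGF-beta pathway, 16 had a negative log2 fold change. For that list limma called 0 of 28, 8 had an unadjusted p under 0.05, edgeR called 0 and DESeq2 4. Id3, its lowest-p member and a target of BMP signaling, stood at 46.7, 35.9, 41.5 and 44.7 and then 23.8, 30.6, 19.9 and 29.2 (adjusted p = 0.057).

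**Figure D5:**
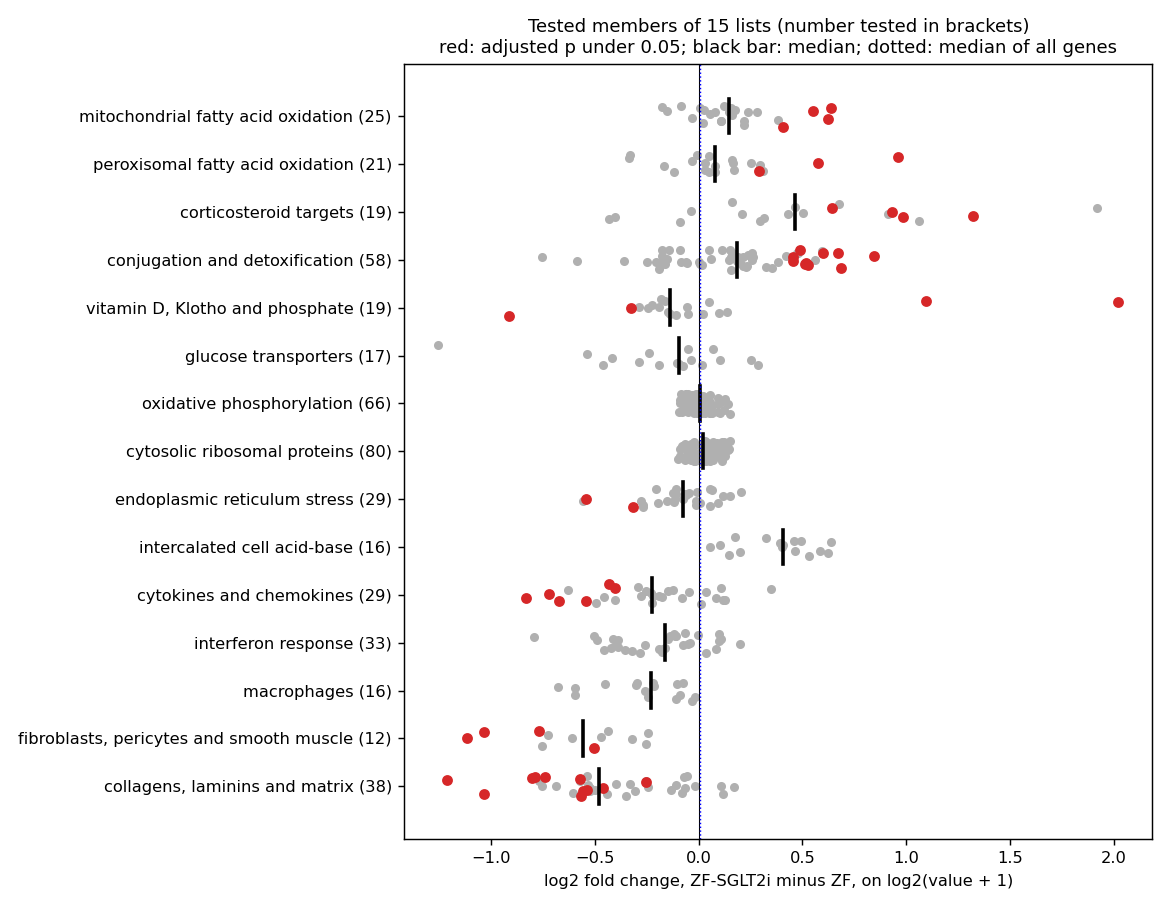
Log2 fold change between ZF-SGLT2i and ZF rats for each tested member of 15 lists, with called genes in red, others in grey, the list's median as a black bar and the median of all genes as a dotted line. Matrix and fibroblast members lie mostly left of 0 and corticosteroid and intercalated cell members mostly right, while oxidative phosphorylation and ribosomal protein members cluster at 0.

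A few chemokine genes and 1 adhesion molecule fell in ZF-SGLT2i rats. Of 29 tested cytokine and chemokine genes, 6 passed (20.7%, beside 1.75% of all genes), all lower, while 7 had a positive log2 fold change and the median was −0.22. Cxcl12, a chemokine of stromal cells and podocytes, stood at 218, 208, 226 and 212 in ZF rats and 169, 146, 173 and 165 in ZF-SGLT2i rats, without overlap (log2 fold change −0.40 ± 0.07, limma, adjusted p = 0.00609). Cxcl16, a membrane-bound chemokine and scavenger receptor, fell from 149, 159.6, 179 and 122 to 107, 97.7, 113 and 95.7 (log2 fold change −0.54 ± 0.10, adjusted p = 0.0104). Cx3cl1, the fractalkine that attracts monocytes, fell from 173, 168, 172 and 144 to 124, 124, 122 and 116 (log2 fold change −0.43 ± 0.10, adjusted p = 0.0264). Also called were the chemokine Cxcl14 and Vcam1, an adhesion molecule of inflamed endothelium and injured tubules. Vcam1 stood at 30.2, 26.4, 32.7 and 17.8 and then 16.5, 17.9, 13.9 and 16.3, with ZF rat 5 just below ZF-SGLT2i rat 3 (log2 fold change −0.67 ± 0.16, adjusted p = 0.0387). Some rats left out took the adjusted p above 0.05 for Cx3cl1 (0.078 without ZF-SGLT2i rat 6), Cxcl14 (0.11 without ZF rat 4) and Vcam1 (0.12 without ZF rat 4). The median was −0.13 without ZF rat 2. The number called was 2 without ZF rat 2 and 7 without ZF rat 5, and with the ribosomal RNA share as a term it was 1, Cxcl12.

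Immune cell markers leaned the same way with few calls. All 16 tested macrophage markers had a negative log2 fold change, with a median of −0.23, and limma called 0 of 16, 3 had an unadjusted p under 0.05, edgeR called 0 and DESeq2 1. Their sum was 425, 401, 441 and 278 in ZF rats and 490.2, 299, 245 and 288 in ZF-SGLT2i rats, where ZF-SGLT2i rat 2 was the highest of all 8. Their most abundant gene by reads, Lyz2, followed the same order, at 213, 209.6, 226 and 138 and then 256, 158, 126 and 149, and Cd163 was under 1 in every rat compared. T cell markers were scarce, and Cd3e, Cd3d and Cd3g were under 1 in all 8 rats. In the interferon list, where the median was −0.16, limma called 0 of 33, 10 had an unadjusted p under 0.05, edgeR called 0 and DESeq2 2. RT1-DOb was the only call in the class II list of 9 (11.1%, beside 1.75% of all genes called lower), a chain of the peptide-loading regulator (−0.71, adjusted p = 0.0127), and C1r the only one of 21 complement genes (4.76%, log2 fold change −0.51, adjusted p = 0.0417). The tubular injury list had a median of −0.28 and 18 negative values among 20, with Vcam1 the only call (5%, beside 1.75%). Single rats moved these medians, to −0.12 without ZF-SGLT2i rat 4 and −0.40 without ZF-SGLT2i rat 2 for macrophage markers, −0.05 without ZF rat 3 and −0.255 without ZF rat 2 for the interferon list, and −0.11 without ZF rat 2 for the injury list. Without ZF rat 5, 5 interferon and 6 complement genes were called lower, beside 314 of all 11612 genes tested in that fit. Proc, the anticoagulant protein C, fell from 35.2, 40.9, 44.9 and 31.7 to 18.6, 19.4, 19.3 and 20.7 (log2 fold change −0.92 ± 0.09, adjusted p = 0.00029). The call of C1r was lost with 1 rat left out (adjusted p = 0.12 without ZF-SGLT2i rat 3), and C1r and RT1-DOb were lost with the ribosomal RNA share as a term.

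Iron and mitosis genes gave small sets. Aco1, which doubles as the iron-sensing RNA-binding protein IRP1, stood at 321, 324, 395 and 325 in ZF rats and 521, 594, 576 and 475 in ZF-SGLT2i rats, all treated rats above all ZF rats (log2 fold change 0.67 ± 0.09, limma, adjusted p = 0.00171). Ncoa4, the cargo receptor that sends ferritin to lysosomes, rose from 359.8, 398, 386 and 423 to 535, 533, 479 and 506 (log2 fold change 0.39 ± 0.07, adjusted p = 0.00935). They were the 2 called of 16 iron genes (12.5%, beside 1.39% of all genes called higher), and both passed under all alternatives. Zfp36, which destabilises mRNAs of inflammation, was the only call of 23 immediate early genes (4.35%, beside 1.39%), from 88.4, 99.1, 95.2 and 102 to 151, 145, 144 and 116 (log2 fold change 0.53 ± 0.09, adjusted p = 0.00605). Of 32 genes of replication and mitosis outside the cyclins, Mki67 and Cenpf fell and Racgap1 rose, with a median of −0.18. This median was −0.01 when genes needed a mean level of at least 10, and −0.29 with edgeR on the reads. Mki67, the proliferation antigen, stood at 21.9, 21.2, 22.6 and 19.3 in ZF rats and 18.1, 10.3, 8.45 and 12.4 in ZF-SGLT2i rats (log2 fold change −0.79 ± 0.18, adjusted p = 0.0264). Incenp, a subunit of the chromosomal passenger complex, rose from 21.3, 20.1, 20.4 and 20.7 to 43.3, 39.7, 51.6 and 45.3, the ZF rats within a very narrow range (log2 fold change 1.08 ± 0.07, adjusted p = 5.91e-06). Racgap1, which acts in cell division after it, had a log2 fold change of 0.60 (adjusted p = 0.0114). Called genes of the replication and mitosis list were 1 higher (3.12%, beside 1.39% of all genes) and 2 lower (6.25%, beside 1.75%). Of its 32 members, 24 had a negative log2 fold change, and at an unadjusted p under 0.05 there were 3 higher and 11 lower. The number called lower was 0 without ZF rat 2 and 7 without ZF-SGLT2i rat 2. Incenp is not in that list. The falls were lost with 1 rat left out for Mki67 (0.092 without ZF-SGLT2i rat 3) and Cenpf (0.059 without ZF-SGLT2i rat 6), and with the ribosomal RNA share as a term.

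The remaining large changes were in genes of diverse roles. Sorcs2, a sorting receptor for neurotrophins, fell from 151, 174, 175 and 137 in ZF rats to 70.4, 70.1, 69.0 and 64.7 in ZF-SGLT2i rats, with little spread in either group (log2 fold change −1.20 ± 0.08, limma, adjusted p = 5.91e-06). Prima1, an anchor of acetylcholinesterase, fell from 175, 229, 238 and 169 to 67.5, 63.5, 74.0 and 117 (log2 fold change −1.35 ± 0.17, adjusted p = 0.000845), and Cacna1h, a T-type calcium channel, from 11.9, 10.8, 10.3 and 8.64 to 2.38, 4.44, 4.73 and 3.57 (−1.28 ± 0.16, adjusted p = 0.000768). Neither pair of groups overlapped. Kap, an androgen-dependent protein of the proximal tubule, had a level of 584, 246, 499 and 159 in ZF rats and 68.7, 102, 116 and 83.0 in ZF-SGLT2i rats, against 1958, 969, 1363 and 3060.2 in ZL rats. ZF rats 2 and 4 were several times higher than the treated rats and ZF rat 5 closest to them (log2 fold change −1.84 ± 0.39, adjusted p = 0.0222). Ky, a protease best known from muscle, fell from 7.00, 11.9, 14.956 and 6.67 to 2.57, 2.52, 2.92 and 2.23 (log2 fold change −1.58 ± 0.21, adjusted p = 0.00118). Nrep, a neuronal regeneration protein, fell from 11.7, 12.2, 23.4 and 10.1 to 4.09, 4.74, 7.24 and 4.12, where ZF rat 4 was far above the rest (log2 fold change −1.30 ± 0.22, adjusted p = 0.00668). The other falls, given as log2 fold changes, were the ephrin receptor Epha4 (−1.14), the imprinted gene Mest (−1.03), the collagen-binding integrin Itga11 (−0.94) and Tmem86a (−0.94), whose enzyme breaks down lysoplasmalogens. Among rises, Rbp4, the retinol-binding protein of plasma, stood at 20.3, 7.22, 12.1 and 6.78 and then 48.7, 58.4, 25.7 and 42.0 (log2 fold change 1.89 ± 0.48, adjusted p = 0.0474). Its ZL rats ranged more widely, at 30.0, 7.72, 12.6 and 51.0. Htr5b, a serotonin receptor, rose from 1.82, 2.00, 1.37 and 3.50 to 7.52, 8.58, 16.8 and 7.91, highest in rat 4 (log2 fold change 1.79 ± 0.26, adjusted p = 0.0019). The other rises were Pkdrej of the polycystin family (1.34), Crtac1 (1.15) and the lipid-mobilising glycoprotein Azgp1 (1.08). With 1 rat left out, the highest adjusted p was above 0.05 for Kap (0.072 without ZF rat 4), Rbp4 (0.14 without ZF-SGLT2i rat 3), Pkdrej (0.068 without ZF-SGLT2i rat 3), Azgp1 (0.13 without ZF rat 4), Epha4 (0.051 without ZF-SGLT2i rat 6) and Mest (0.059 without ZF-SGLT2i rat 3). With the ribosomal RNA share as a term, Kap, Rbp4, Pkdrej, Azgp1, Epha4 and Itga11 did not pass, and edgeR on the reads did not call Rbp4 or Azgp1.

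Several basic cell functions showed no called gene. For cytosolic ribosomal proteins limma called 0 of 80, 0 had an unadjusted p under 0.05, edgeR called 0 and DESeq2 0, and their fold changes had a median of 0.02 on the log2 scale. For the proteasome limma called 0 of 41, 4 had an unadjusted p under 0.05, edgeR called 0 and DESeq2 1 (median −0.01), and for lysosome and autophagy genes limma called 0 of 35, 4 had an unadjusted p under 0.05, edgeR called 1 and DESeq2 2 (median −0.07). For the hypoxia-inducible factor pathway limma called 0 of 26, 4 had an unadjusted p under 0.05, edgeR called 0 and DESeq2 2, with a median of 0.02. The genes of the repressor clock list, which also holds output genes of the clock, all had a positive log2 fold change (9 of 9, median 0.24, or 0.09 without ZF rat 4). In that list limma called 0 of 9, 1 had an unadjusted p under 0.05, edgeR called 0 and DESeq2 0. Ciart, a repressor of the clock, stood at 8.34, 7.12, 3.25 and 11.7 in ZF rats and 11.0, 8.78, 15.9 and 13.9 in ZF-SGLT2i rats, against a mean of 0.664 ± 0.278 in ZL rats, and the ZF and ZF-SGLT2i rats overlapped. Markers of skeletal muscle and adrenal cortex had no gene that reached the filter, and those in the table were under 1 in all 8 rats.

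In the smaller metabolic and transport lists single genes came close to the threshold without a call, and of these lists edgeR called a gene in none. Over all 11633 genes tested, 1996 had an unadjusted p under 0.05 and DESeq2 called 641. For polyamines limma called 0 of 15, 1 had an unadjusted p under 0.05, edgeR called 0 and DESeq2 1. Sat1, the enzyme that starts polyamine breakdown, stood at 198, 215, 187 and 262 in ZF rats and 277, 276, 358 and 336 in ZF-SGLT2i rats, without overlap (log2 fold change 0.53 ± 0.15, limma, adjusted p = 0.0736). In the kynurenine and NAD list, limma called 0 of 16, 3 had an unadjusted p under 0.05, edgeR called 0 and DESeq2 1. Nmrk1, a kinase that makes the NAD precursor nicotinamide mononucleotide, was higher in each ZF-SGLT2i rat than in any ZF rat (log2 fold change 0.54, adjusted p = 0.0838), and Nmnat3, which acts after it in mitochondria, lower in each (−0.36, adjusted p = 0.0967). For proximal protein endocytosis, limma called 0 of 11, 3 had an unadjusted p under 0.05, edgeR called 0 and DESeq2 2, and Ctsl, a lysosomal protease that degrades the proteins taken up, did not overlap between the groups (797, 703, 1023 and 600.1 and then 567, 494, 589 and 401, log2 fold change −0.59, adjusted p = 0.0657). For proximal sodium, bicarbonate and ammonia transport, limma called 0 of 18, 6 had an unadjusted p under 0.05, edgeR called 0 and DESeq2 2. For distal calcium and magnesium transport, limma called 0 of 14, 1 had an unadjusted p under 0.05, edgeR called 0 and DESeq2 0. For osmolytes and urea, limma called 0 of 10, 2 had an unadjusted p under 0.05, edgeR called 0 and DESeq2 1. The inhibitors of cyclin-dependent kinases and targets of p53 had a median of 0.03, and limma called 0 of 20, 6 had an unadjusted p under 0.05, edgeR called 0 and DESeq2 0. Cdkn1a, which encodes p21, stood at 35.8, 27.962, 30.3 and 24.3 in ZF rats and 20.9, 21.6, 25.7 and 20.1 in ZF-SGLT2i rats, which overlapped (adjusted p = 0.138). Over the 70 lists together, 42 distinct genes of the 1260 tested were called higher and 38 lower, beside 1.39% of all genes tested called higher and 1.75% lower.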

How the data were processed

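Libraries of rat renal cortex were depleted of ribosomal RNA, kept strand and were read from both ends at 150 bases. The authors deposited 1 signal value per gene and rat, which are scaled read counts. The submitters' processing notes name Trimmomatic 0.38, Bowtie2, RSEM 1.3.0, edgeR and the build rn6, without settings. Every deposited value was a whole multiple (tolerance 1e-06) of the value of 1 read, and the values equal the CPM that edgeR gives with TMM factors, so the reads of each gene were recovered (100% of values came out whole). The rats compared had 8824980 to 11191377 reads on genes, and the fewer reads a gene has, the less precise is its value.

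limma 3.58.1 (R 4.3.3) was fitted to log2(value + 1) of all 12 rats with the 3 groups as terms, eBayes with trend, two-sided, for genes with a value of 1 or more in 4 or more rats. Adding 1 shrinks fold changes of low genes. Calls needed an adjusted p under 0.05. The 70 gene and marker lists were described by counts and medians, without a set test. Named genes were Slc5a2 and Slc5a1, the 15 largest called rises and falls that did not overlap and had a mean of at least 5 in the higher group, the called or lowest-p members of each list, and the most abundant markers, without cyclins. A few genes that this rule names are not reported here. Genes named outside this rule (Slc34a1, Slc34a3, Kl, Fgfr1, Acadm, Hadha, Acaa2, Zbtb16, Hsp90b1, Ddit3, Atf4, Creld2 and those of the closing section) were chosen after their values were seen, as were those named for a promoter motif (Xbp1, Canx, Dnajc3, Derl3) or for values under 1 (Cd163, Cd3e, Cd3d, Cd3g, Slc14a1). The members and lists were chosen with earlier results of these data known. No 2 rats were copies of each other. The tools, edgeR 4.0.16 and DESeq2 1.42.0 as alternatives among them, were tested on simulated data. Nothing says that rats of a group shared or did not share a litter, and p-values measure the spread between these rats. Near-identical copies (Gst, Ugt, Mt, Ces, Cyp4a, RT1) can share reads, which makes their single values uncertain. On the recovered reads, edgeR called 368 genes. Promoters came from RefSeq (GRCr8), matched by symbol or synonym.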

Additional observations from a re-analysis of the deposited data

Results flagged for a closer look

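Over the 204 named genes, the reads on genes and the ribosomal RNA share, 412 groups of 4 rats were looked at for a rat that stood far from the other 3, with a gap above Dixon's critical value for 4 samples. By chance about 1 in 20 groups, here 20.6, would show such a gap, and 16 did. ZF rat 4 stood apart in the level of Aco1 (394.9, the others 320.6 to 324.5), Fbp1 (767.6, the others 490.1 to 515.5), Nrep (23.42, the others 10.06 to 12.23) and Slc2a1 (38.29, the others 48.64 to 50.72). ZF rat 5 stood apart in the level of Cx3cl1 (144.4, the others 168.3 to 173.0), Gpt2 (12.79, the others 8.205 to 8.82) and Klf15 (84.28, the others 65.04 to 66.85). ZF-SGLT2i rat 2 stood apart in the level of Fbn1 (45.32, the others 36.42 to 37.35) and Podxl (880.6, the others 1119 to 1161). ZF-SGLT2i rat 4 stood apart in the level of Cebpb (22.84, the others 38.46 to 39.23), Cyp4a1 (101.4, the others 125.1 to 129.6), Htr5b (16.8, the others 7.522 to 8.581) and Tmem86a (30.69, the others 20.09 to 21.62). ZF-SGLT2i rat 6 stood apart in the level of Ciita (12.82, the others 16.09 to 16.7), Gstm2 (39.12, the others 31.8 to 32.81) and Timp3 (268.1, the others 300.1 to 303.8). In none of the called genes among these did leaving out the rat that stood apart change the direction of the difference. ZF rat 4 and ZF-SGLT2i rat 4 stood apart in 4 groups each, and no explanation was tested.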

How the results depend on the processing

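The number of called genes depended on which rats were in the fit. Against 366 called genes, 162 of them higher and 204 lower, leaving out 1 rat at a time gave 176 to 569 genes, of which 89 to 255 were higher and 82 to 314 lower. The lowest total came without ZF-SGLT2i rat 3 and the highest without ZF rat 5. The total was also more than 1.5 times lower without ZF rat 2 (206), ZF rat 3 (184), ZF rat 4 (188), ZF-SGLT2i rat 4 (209) or ZF-SGLT2i rat 6 (181), and without ZL rat 4 the count of higher genes was 250. With fewer rats the fit has fewer samples. The share of called genes that were higher went from 44.3% to 56.4% without ZF rat 4 and to 39.4% with edgeR. With the ribosomal RNA share as a term, 214 genes passed, 102 of them lower. Array quality weights gave 689 genes, 311 higher and 378 lower, and DESeq2 on the reads gave 641, 274 higher and 367 lower. The cause of these differences was not tested. The pseudocount, the filters on low values, median-ratio scaling, quantile normalization, a fit with only the ZF and ZF-SGLT2i rats and edgeR left the total within 1.5 times of 366 (306 to 477).

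Both groups have rats numbered 2, 3 and 4. The deviations of same-numbered rats from their group means correlated at 0.0141, −0.0228 and 0.2532 across genes, so the numbers were not taken to pair the rats. A fit with the replicate block gave 223 called genes, 109 higher and 114 lower, and 51 of the 125 called named genes did not pass in it, among them Hspa5, Pdk4, Slc51a, Slc22a6 and Pth1r.

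Of the 125 named genes that were called, 48 passed in every alternative that tested them, 60 passed whichever rat was left out, and none changed direction. A fit with only the 2 groups lost Cyp4f6, Foxo1, Lrat, Ripk3, Timp3 and Ugt2b10, and a pseudocount of 0.1 lost Cyp27b1, Serpina1 and Ugt2b10. Of the 79 named genes that were not called, 41 passed in at least 1 alternative. The direction turned for 7 genes that were not called, given here as log2 fold changes. With the ribosomal RNA share as a term they were −0.0105 for Hsd11b2, −0.0757 for Podxl and −0.1928 for Upk1a. Pparg turned to 0.0254 with quantile normalization, 0.013 with array weights and 0.1663 with the replicate block, where Hba2 turned to −0.0906. With 1 rat left out, Hba2 ranged from −0.2813 to 0.7164, Kdr from −0.1089 to 0.051, Mcm7 from −0.0355 to 0.0954, Pparg from −0.153 to 0.1586 and Upk1a from −0.0852 to 0.2777. Of the 68 lists with a tested gene, the median kept its sign in every alternative in 38, among them the matrix, fibroblast, chemokine, macrophage, corticosteroid, intercalated cell, vitamin D, detoxification and fatty acid oxidation lists. In 27 of the other 30 the median was within 0.1 of 0, and the rest were the organic ion transporter, activator clock and red blood cell lists. Depth limits genes of few reads, such as Cyp27b1 with 1 to 23 reads per rat.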

Other observations

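The called genes given here were outside the lists and chosen after their values were seen, so they stand for themselves and not for a pathway. Gnmt, which uses up methyl groups by methylating glycine, stood at 11.7, 12.7, 13.2 and 12.1 in ZF rats and 22.8, 21.5, 19.8 and 17.4 in ZF-SGLT2i rats (log2 fold change 0.66 ± 0.09, limma, adjusted p = 0.00121). Aldh1l1, an enzyme of folate metabolism, stood at 117, 126, 118 and 124 and then 164, 159, 153 and 157 (log2 fold change 0.38 ± 0.05, adjusted p = 0.00115). The log2 fold change was 0.59 for the branched-chain aminotransferase Bcat2 (adjusted p = 0.0168), 0.27 for Dbt of the branched-chain ketoacid dehydrogenase (adjusted p = 0.0234) and 0.26 for the carboxylase Pcca (adjusted p = 0.0176). Aldh18a1, which makes proline, had a log2 fold change of −0.39 (adjusted p = 0.0293). Grhpr, which reduces glyoxylate, stood at 337, 362, 376 and 322 in ZF rats and 278, 277, 268 and 263 in ZF-SGLT2i rats (log2 fold change −0.36 ± 0.06, adjusted p = 0.00573), and the hydroxyacid oxidases Hao1 and Hao2 had log2 fold changes of −1.11 (adjusted p = 0.0207) and −0.77 (adjusted p = 0.0317). Calls were lost with 1 rat left out for Bcat2 (0.057 without ZF-SGLT2i rat 6), Dbt (0.072 without ZF-SGLT2i rat 3), Pcca (0.061 without ZF rat 3), Aldh18a1 (0.1 without ZF-SGLT2i rat 3), Hao1 (0.072 without ZF-SGLT2i rat 3) and Hao2 (0.11 without ZF-SGLT2i rat 3). With the ribosomal RNA share as a term, calls were lost for Bcat2, Dbt, Aldh18a1, Hao1 and Hao2.

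Other called genes, picked in the same way, follow. The log2 fold change was −0.54 for the endotoxin receptor Tlr4 (adjusted p = 0.0264), −0.77 for the inflammasome adaptor Pycard (adjusted p = 0.0338), −0.68 for the necroptosis kinase Ripk3 (adjusted p = 0.0352) and 0.75 for the transcription factor Cebpb (adjusted p = 0.0282). Serpinh1, the collagen chaperone, stood at 163, 147, 156 and 143 in ZF rats and 119.7, 119, 106 and 111 in ZF-SGLT2i rats (log2 fold change −0.42 ± 0.07, adjusted p = 0.00827), and the collagen hydroxylase Plod1 (−0.37, adjusted p = 0.0352) and the matrix protein Tnc (−0.80, adjusted p = 0.0352) were called as well. The adrenergic receptors Adra1b (0.68, adjusted p = 0.00336) and Adrb1 (0.62, adjusted p = 0.0427) were both called. Lrat, which stores retinol as esters, had a log2 fold change of −0.70 (adjusted p = 0.0393) and Aldh1a2, which makes retinoic acid, one of −0.46 (adjusted p = 0.0309). The mitochondrial fusion gene Mfn1 stood at 88.6, 91.9, 101 and 97.5 and then 131, 123, 127 and 142 (log2 fold change 0.46 ± 0.06, adjusted p = 0.00118). Cd34 of endothelium had a log2 fold change of −0.60 (adjusted p = 0.0264), and Serpina1, the protease inhibitor of plasma, one of 1.00 (adjusted p = 0.0151). Calls were lost with 1 rat left out for Tlr4 (0.08 without ZF rat 2), Pycard (0.11 without ZF rat 2), Ripk3 (0.11 without ZF rat 4), Cebpb (0.096 without ZF-SGLT2i rat 3), Plod1 (0.11 without ZF-SGLT2i rat 6), Tnc (0.12 without ZF-SGLT2i rat 3), Adrb1 (0.13 without ZF-SGLT2i rat 3), Lrat (0.12 without ZF rat 3), Aldh1a2 (0.095 without ZF rat 2) and Cd34 (0.081 without ZF rat 2). The term for the ribosomal RNA share removed the calls of Tlr4, Pycard, Ripk3, Cebpb, Plod1, Tnc, Adrb1 and Lrat.

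Some cell type markers varied between rats of the same group. Red blood cell markers, with Hba2 the most abundant by reads, summed to 23.5, 6.41, 17.1 and 27.5 in ZF rats and 28.5, 3.63, 27.1 and 56.7 in ZF-SGLT2i rats, and the groups overlapped over a wide range. Lymphocyte markers summed to 31.7, 31.2, 36.8 and 23.8 and then 36.6, 21.0, 17.005 and 22.6, where ZF-SGLT2i rat 2, the highest rat for macrophage markers, was again the highest treated rat. Endothelial markers summed to 1205, 1231, 1104 and 1095 in ZF rats and 994, 1165, 1007 and 1267 in ZF-SGLT2i rats, which overlapped.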
